A study of Mus musculus with 18 samples.

Results

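Expression of 10 circadian clock genes was described in mouse kidney RNA, gene by gene and library by library. The genes were fixed by name, as *Per1*, *Per2*, *Per3*, *Cry1*, *Ciart*, *Bmal1*, *Npas2*, *Nr1d1*, *Dbp*, and *Tef*, and were 10 of the 78239 genes listed for each library. All 10 were found by their Ensembl identifiers. In the design, 18 wild-type CD-1 mice aged 6 wk were compared, with 1 RNA-seq library each: 5 males and 5 females of dams fed a low protein diet with 8% protein (LP), and 5 males and 3 females of dams fed a normal protein diet with 18% protein (NP). The dams' diets covered gestation and lactation, and all offspring were fed the NP diet after weaning. According to the study's methods, mice received cationic ferritin, a contrast agent for imaging of glomeruli, before kidney collection. From the final injection to collection, 90 min passed in males and 24 h in females, so sex and this interval cannot be told apart. RNA came from a piece of the left kidney according to the sample labels, whereas the series' design text speaks of a dissociated whole kidney. The sources used here give neither the clock time of collection nor the litter of each mouse, so no value below was assigned to a phase of the day, and p-values measure only the spread between these mice.

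The mammalian clock is a transcriptional feedback loop that runs in nearly every cell, the tubular cells of the kidney included. CLOCK or its paralog NPAS2 pairs with BMAL1 and activates genes with E-box sequences in their promoters, among them the *Per*, *Cry*, *Nr1d1*, *Ciart*, and *Dbp* genes. PER and CRY proteins then repress that activation, the REV-ERB receptor encoded by *Nr1d1* represses *Bmal1* and *Npas2*, and the PAR bZIP factors DBP and TEF pass the rhythm on through D-box sequences. Transcripts of *Bmal1* and of *Per*, *Nr1d1*, and *Dbp* peak at different times of day in kidney as in other tissues, and glucocorticoids induce *Per1* directly.

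The genes lie on 7 chromosomes of GRCm39, as annotated in GENCODE vM39. *Per1* (ENSMUSG00000020893) is on chromosome 11 at 68986035-69002300, plus strand. *Nr1d1* (ENSMUSG00000020889) is on the minus strand of the same chromosome at 98658752-98666188. *Per2* (ENSMUSG00000055866) is on chromosome 1 at 91343700-91387069, minus strand, and *Npas2* (ENSMUSG00000026077) on the plus strand at 39232705-39402323. *Bmal1* (ENSMUSG00000055116) and *Dbp* (ENSMUSG00000059824) are on the plus strand of chromosome 7 at 112806152-112914735 and 45354512-45359627. *Per3* (ENSMUSG00000028957) is on chromosome 4 at 151081373-151129140, *Cry1* (ENSMUSG00000020038) on chromosome 10 at 84967560-85021252, and *Ciart* (ENSMUSG00000038550) on chromosome 3 at 95785815-95789991, all on the minus strand. *Tef* (ENSMUSG00000022389) is on chromosome 15 at 81686622-81711064, plus strand.

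Clock motifs were looked up in the 250 bases before the start of each gene's Ensembl canonical transcript, on both strands. The E-box was searched as CACGTG, the D-box as TTANGTAA, and the core of the RORE, the element that REV-ERB and ROR receptors bind, as ANTNGGTCA. An E-box was present in 4 of the 10 genes (*Per1*, *Cry1*, *Ciart*, and *Tef*), a D-box in 2 (*Per2* and *Per3*), and a RORE core in 1 (*Dbp*). Of 21770 promoters of protein-coding genes searched over the same length, 6.26% held the E-box, 2.08% the D-box, and 1.9% the RORE core. The sequences of the genes on which the results turn are shown, with motif letters in capitals, read from GRCm39 on the strand of the gene. *Per1*, *Per3*, and *Tef* are shown over 250 bases that hold no exon of a coding gene. *Cry1* and *Ciart* are shown over 30 bases around their E-boxes, since 250 and 169 bases of their windows are annotated as exons of coding genes.
Per1, chr11:68989018-68989267, plus strand: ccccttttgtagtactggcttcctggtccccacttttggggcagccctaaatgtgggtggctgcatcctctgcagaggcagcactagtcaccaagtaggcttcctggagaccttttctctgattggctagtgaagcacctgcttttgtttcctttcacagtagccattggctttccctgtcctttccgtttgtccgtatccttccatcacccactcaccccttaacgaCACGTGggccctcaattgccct
Per3, chr4:151129141-151129390, minus strand: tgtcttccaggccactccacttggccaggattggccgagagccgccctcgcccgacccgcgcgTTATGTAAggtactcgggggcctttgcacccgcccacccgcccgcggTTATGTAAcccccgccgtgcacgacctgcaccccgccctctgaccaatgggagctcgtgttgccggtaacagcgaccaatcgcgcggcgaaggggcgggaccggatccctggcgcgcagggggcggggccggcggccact
Tef, chr15:81695365-81695614, plus strand: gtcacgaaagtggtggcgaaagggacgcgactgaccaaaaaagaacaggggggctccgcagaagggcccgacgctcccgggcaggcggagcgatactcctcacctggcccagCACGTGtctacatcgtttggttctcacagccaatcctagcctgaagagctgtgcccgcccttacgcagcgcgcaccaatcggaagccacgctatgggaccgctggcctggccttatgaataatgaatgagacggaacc
Cry1, chr10:85020961-85020990, minus strand: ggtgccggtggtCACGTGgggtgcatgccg
Ciart, chr3:95789574-95789603, minus strand: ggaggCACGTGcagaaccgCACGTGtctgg
The E-box of *Per1* began 22 bases and that of *Cry1* 29 bases before the transcript start. *Ciart* had a further E-box 100 bases before its start, outside the stretch shown. No such letters were found in the windows of *Bmal1*, *Npas2*, and *Nr1d1*, which says nothing about sites elsewhere.

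Libraries held 14050486 to 23562411 gene-assigned reads. NP female 3, 1 of the 3 NP females, had 12.6% multimapping reads, against 5.92% to 8.91% in the other libraries. Of its reads 36.1% were not assigned to a gene, against 28.6% to 33.1% in the others. When libraries were clustered on log2(CPM + 1) of 12665 genes (CPM, counts scaled to a common library total), LP female 1, LP female 2, and NP female 3 separated first from the other 15, and the main results that involve females are therefore also given without them. Marker genes of the proximal tubule summed to between 6134 and 10998 CPM in all libraries. Those of the thick ascending limb ran from 1904 to 7381.5 CPM and those of the collecting duct from 244 to 772 CPM. Markers of podocytes differed by sex, with 28.6 to 60.1 CPM in males and 71.9 to 157 CPM in females. Adrenal cortex markers stayed at 4.19 CPM or below. Markers of fat reached 123 CPM in NP female 3, 1 of the 3 separate libraries, and 0 CPM in others. In bulk RNA, fewer cells of a type and less RNA per cell cannot be told apart.

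Levels were compared between genes as counts normalized for library size (divided by DESeq2's size factors) per kb of exon. *Tef* had the highest level, with 809.8 ± 136 normalized counts per kb (SD, n = 18), and its lowest library (638) lay above the highest library of any other of the 10 genes except *Dbp* (681). *Nr1d1* (298 ± 130) and *Dbp* (294 ± 124) followed and did not differ beyond their spread. *Per1* came next at 146 ± 62.1, followed by *Per2* at 127 ± 25.3 and *Ciart* at 104 ± 41.5, with each of these neighbours within the spread of the other. *Per3* was lower at 58.6 ± 15.3 and *Cry1* at 28.9 ± 12.9. The activators were the lowest of the 10, with *Npas2* at 4.39 ± 1.93 and *Bmal1* at 3.66 ± 1.45, again within each other's spread. The range of *Cry1* (12 to 66.4) did not overlap that of *Npas2* (1.07 to 8.39) or *Bmal1* (1.61 to 7.23). Among related genes, *Clock*, the partner of BMAL1, was at 46.1 ± 9.52 and *Bmal2*, a paralog of *Bmal1*, at 12.4 ± 2.94 per kb.

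**Figure D1:**
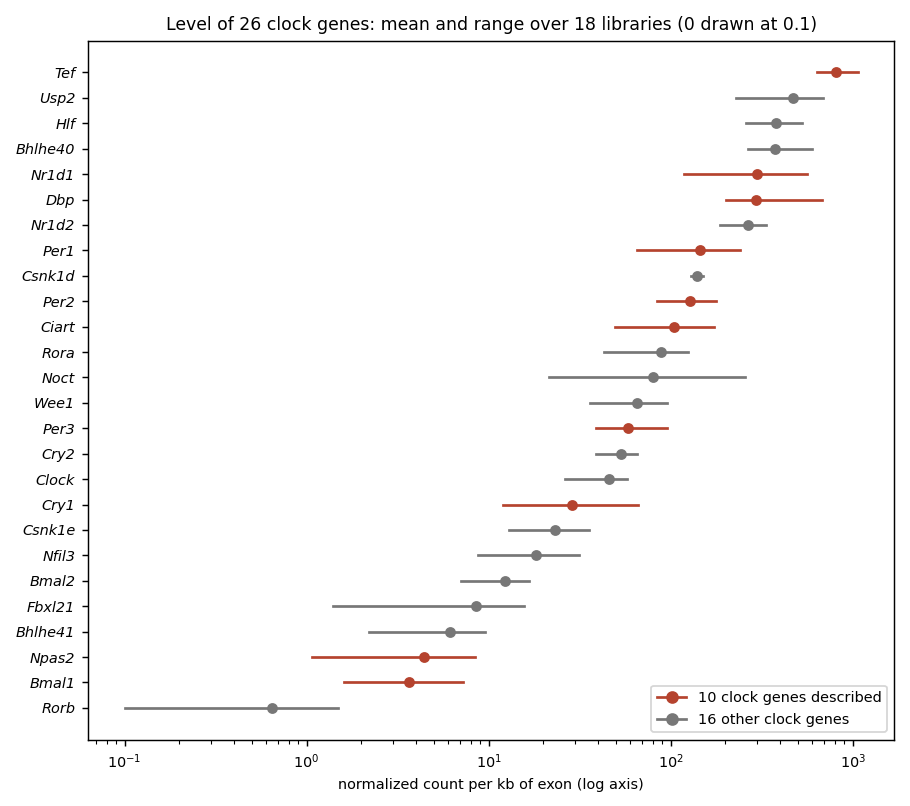
Level of the 10 clock genes (red) and 16 other clock genes (grey) in normalized counts per kb of exon, on a log axis. Points are means and lines run from the lowest to the highest of 18 libraries. *Tef* stands at 809.8 and *Bmal1* at 3.66.

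The counts behind these levels differed in precision. *Bmal1* had between 15 and 77 counts per library and *Npas2* between 7 and 45, so that *Npas2* did not reach 10 counts in every library and entered no test that included females. The other 8 genes had at least 48 counts in each library. Reads in exon overlaps of genes on opposite strands are left out of the unstranded counts used here. For *Nr1d1*, 52.8% of the exon bases overlap another gene, nearly all of them the thyroid hormone receptor gene *Thra*, and the sum of the 2 stranded columns, which counts such reads once for each gene, was 1.63 times the unstranded count. For *Dbp*, which overlaps *Sphk2*, this ratio was 2.09, for *Npas2* 1.22, and for *Per3* 1.16, and for the other 6 genes it was 1.09 or below. The levels of *Nr1d1* and *Dbp* are thus less certain than those of the other genes.

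To ask whether maternal diet altered these genes in males, LP and NP males were compared with edgeR over 13181 genes. None of the 10 genes passed an adjusted p of 0.05 with a 1.5-fold change, against 5 genes or 0.0379% of all genes tested. At an unadjusted p under 0.05, 506 genes and 2 of the 10 clock genes were found, *Cry1* lower and *Nr1d1* higher in LP males. With DESeq2, 15 genes passed and again none of the 10. The median log2 fold change of the 10 was 0.16, with 7 above 0, while 48.8% of all genes tested were above 0.

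*Cry1*, a core repressor of CLOCK and BMAL1, gave the smallest p of the 10. Its normalized counts were 59.6, 90, 111, 82.3, and 115 in LP males 1 to 5 and 158, 177, 154, 164, and 117 in NP males 1 to 5. The 2 groups did not overlap, with all LP males lower, although LP male 5 and NP male 5 lay close together. The means were 91.6 ± 22.6 and 154 ± 22.5 (SD, n = 5 each), a log2 fold change of -0.73 (SE 0.19), and edgeR gave a p of 0.0023, or 0.979 once adjusted over all genes tested. The two-sided exact permutation test gave p = 0.00794, the smallest that 5 against 5 mice allow, and 0.159 after adjustment over the 20 such tests of 10 genes in each sex. *Cry1* was the only one of the 10 whose LP and NP males did not overlap, against 0.683% of all genes tested. On CPM in place of size-factor normalized counts, LP male 5 (6.59) lay above NP male 5 (6.43), so that the groups overlapped, as they did in all 10 genes, against 0.607% of all genes without overlap on CPM. The exact permutation p was then 0.0159.

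*Nr1d1*, the REV-ERB repressor, had normalized counts of 1643, 858, 453, 1374, and 1011 in LP males 1 to 5 and of 522, 789, 655, 654, and 500 in NP males 1 to 5. Of the LP males, 4 exceeded every NP male, and LP male 3 was below all of them. The log2 fold change was 0.79 (SE 0.28), with a p of 0.0149 and an adjusted p of 0.9996 by edgeR. The exact permutation p was 0.103. With the sum of the stranded columns, which adds the reads shared with *Thra*, the log2 fold change was 0.68 (edgeR adjusted p = 0.9996).

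The remaining genes differed less between LP and NP males. *Per2*, a core repressor, was at 706 ± 119 normalized counts in LP and 858 ± 211 in NP males, which is -0.27 on the log2 scale (SE 0.17). *Per1* (888 ± 281 and 797 ± 285) and *Per3* (533 ± 121 and 549.8 ± 66.4) were within the spread between mice. So were *Ciart*, an inhibitor of CLOCK-BMAL1 activity (271 ± 113 and 223 ± 82.3), *Bmal1* (44.8 ± 25.5 and 37.9 ± 13.3), and *Npas2* (30.6 ± 11.4 and 26.1 ± 7.63). The output factors *Dbp* (907 ± 128 and 831 ± 146) and *Tef* (7799 ± 889 and 7016 ± 973) also stayed within 1 SD of each other's means. None of these 8 had an unadjusted p under 0.05.

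**Figure D2:**
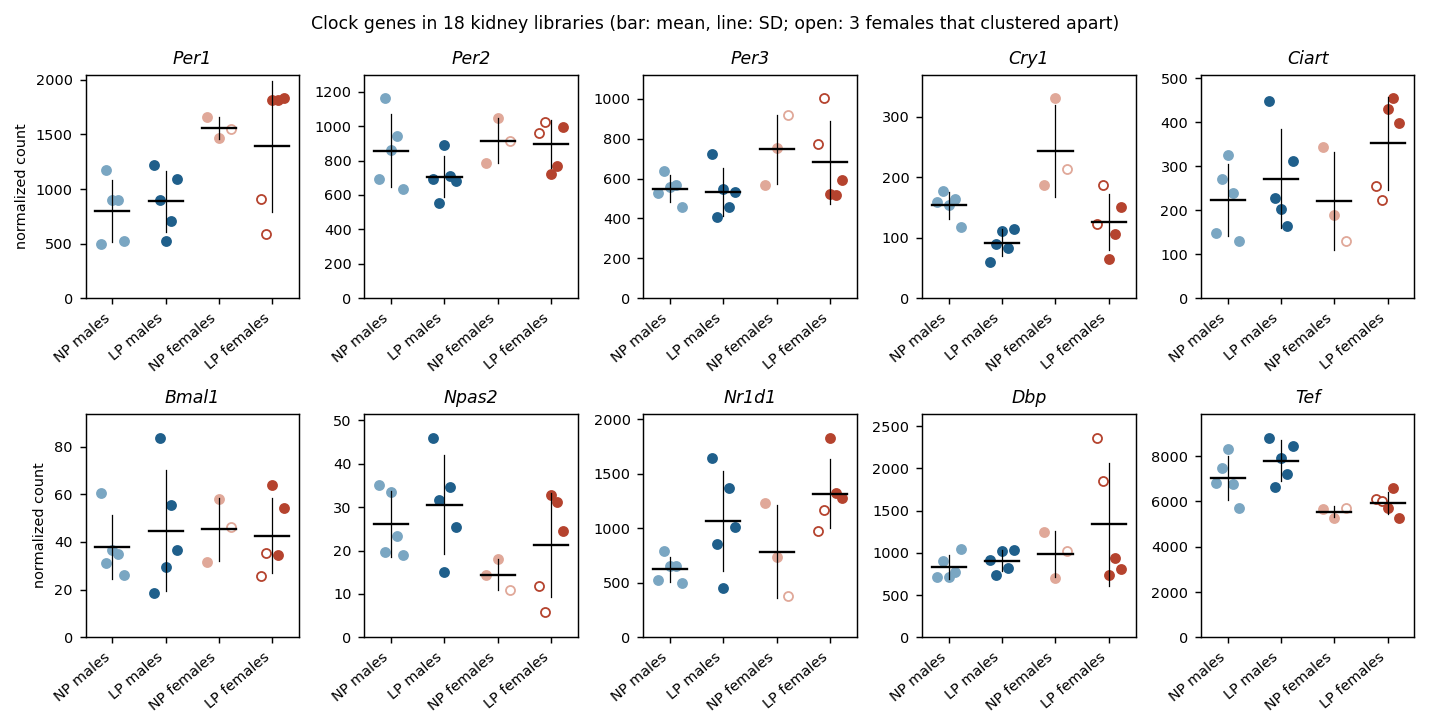
Normalized counts of the 10 genes in each of 18 libraries by group, on linear axes from 0. Points are libraries, horizontal bars means, and vertical lines SD, with open points for LP females 1 and 2 and NP female 3. *Cry1* is lower on average in LP than in NP mice of both sexes, and *Per1* is higher in 6 of 8 females than in any male.

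In females, LP and NP mice were compared over 13510 genes. Of the 10 clock genes 9 were tested, and none passed the threshold, nor did any of all genes tested (0%). At an unadjusted p under 0.05, 564 genes and 1 of the 9 clock genes, *Cry1*, were found, and DESeq2 called 9 genes but none of the clock genes. The median log2 fold change of the 9 was -0.03, with 4 above 0, against 48.1% of all genes.

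*Cry1* had 122, 187, 64.7, 105, and 150.2 normalized counts in LP females 1 to 5 and 187, 330.5, and 214 in NP females 1 to 3. All LP females were below all NP females, but LP female 2 (186.6) and NP female 1 (186.9) were almost equal. The means were 126 ± 46 (n = 5) and 244 ± 76.4 (n = 3), a log2 fold change of -0.95 (SE 0.34), with a p of 0.0187 and an adjusted p of 0.886 by edgeR. By two-sided exact permutation p was 0.0357 on normalized counts, the smallest that 5 against 3 mice allow, and 0.107 on CPM. *Cry1* was 1 of the 399 genes (2.95% of those tested) whose LP and NP females did not overlap, and the only one among the 9 clock genes. On CPM, LP female 2 (12.2) lay above NP female 1 (11.8), and none of the 9 genes was without overlap, against 2.6% of all genes. Without the 3 separate libraries, the log2 fold change was -1.27 (SE 0.38, edgeR adjusted p = 0.972).

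*Nr1d1* was 1316 ± 317 in LP females and 784 ± 426 in NP females, with single values of 977, 1170, 1830, 1321, and 1280 in LP females 1 to 5 and 1232, 737, and 383 in NP females 1 to 3. The groups overlapped through NP female 1. Its log2 fold change was 0.75 (SE 0.35, edgeR adjusted p = 0.886, exact permutation p = 0.107) and fell to 0.36 (SE 0.25) with the sum of the stranded columns. Without the 3 separate libraries it was 0.58 (SE 0.27, edgeR adjusted p = 0.972). *Ciart* averaged 352 ± 106 in LP and 221 ± 111 in NP females, which is 0.67 on the log2 scale (SE 0.36, edgeR adjusted p = 0.886, exact permutation p = 0.143). The lowest of its NP values, 130, belonged to NP female 3, and the 2 lowest of its LP values, 254 and 223, to LP females 1 and 2, which are the 3 separate libraries. Without these the log2 fold change of *Ciart* was 0.67 (SE 0.27, edgeR adjusted p = 0.972).

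*Per1* (1393 ± 600.3 in LP and 1559 ± 96.8 in NP females), *Per2* (894 ± 139 and 916 ± 131), and *Per3* (681 ± 207 and 746 ± 175) had log2 fold changes between -0.16 and -0.03. *Bmal1* was 42.7 ± 15.7 and 45.2 ± 13.2, *Tef* 5936 ± 483 and 5551 ± 233, and *Npas2*, which was not tested, 21.2 ± 11.9 and 14.4 ± 3.57. *Dbp* had the widest spread, with 1338 ± 728 in LP and 990 ± 274 in NP females and a log2 fold change of 0.44 (SE 0.41). LP females 1 and 2 carried that difference, and without the 3 separate libraries the log2 fold change of *Dbp* was -0.25 and that of *Per1* 0.21.

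Whether diet acted differently in males and females was tested with an interaction term in a model of all 4 groups. None of 9 clock genes passed, against 2 genes or 0.0158% of 12665 tested, and none had an unadjusted p under 0.05, against 509 of all genes. DESeq2 called 4 genes and none of the 9. The interaction was -0.22 (SE 0.38) for *Cry1* and -0.05 (SE 0.47) for *Nr1d1* on the log2 scale, both smaller than their SE. Without the 3 separate females they were -0.56 (SE 0.41) and -0.22 (SE 0.47), with edgeR adjusted p = 0.9994 for both. The mean of the diet effects over both sexes was added after the data had been seen. It gave a log2 fold change of -0.84 (SE 0.19) for *Cry1*, with an unadjusted p of 0.000302 and an adjusted p of 0.398 by edgeR, where 1 of all genes passed (0.0079%). With DESeq2 the adjusted p of *Cry1* was 0.019, so this call depends on the tool. For *Nr1d1* the mean effect was 0.76 (SE 0.24, edgeR adjusted p = 0.711).

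**Figure D3:**
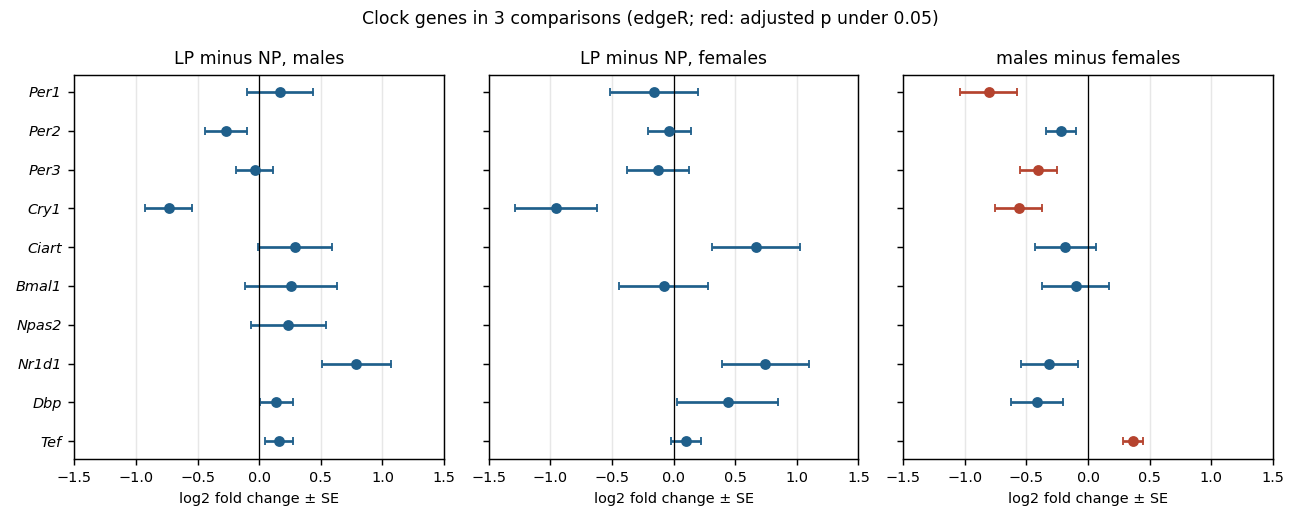
Log2 fold changes (points) with SE (bars) of the 10 genes by edgeR, for LP minus NP in males, LP minus NP in females, and males minus females. Genes with an adjusted p under 0.05 are red and occur only in the third panel, and *Npas2* was not tested where females enter. *Cry1* is at -0.73 in males and -0.95 in females.

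Other genes of the clock were read from the same tests. Of 16 further clock genes 15 were tested in each comparison, *Rorb* being too low, and none passed in the diet comparison of either sex. *Bhlhe40*, encoding a repressor that competes for E-boxes, was 3077 ± 470 in LP and 2224 ± 444 in NP females (log2 fold change 0.47, SE 0.18, edgeR adjusted p = 0.886), and the log2 fold change was 0.44 without the 3 separate libraries (edgeR adjusted p = 0.972). The kinase gene *Csnk1d*, which acts on the stability of PER proteins, had a log2 fold change of 0.014 between LP and NP males.

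Males and females were compared over both diets, with the injection interval differing in the same way. Of the 9 clock genes tested 1 passed, *Per1*, which was lower in males, while 2370 or 18.7% of all 12665 genes passed. By adjusted p alone, 4 of the 9 passed (*Per1*, *Per3*, and *Cry1* lower and *Tef* higher in males), against 38.7% of all genes. The median log2 fold change of the 9 was -0.31, with 8 below 0 and 1 above. Over all genes the median was -0.05, and 45% were above 0. Markers of some other cell types also differed between the sexes. Those of podocytes did not overlap (28.6 to 60.1 CPM in males, 71.9 to 157 CPM in females). *Slc12a3*, the only marker used for the distal convoluted tubule, was 213 to 512 CPM in males and 493 to 878 CPM in females. Sums of the thick ascending limb were 1910.3 to 3888.4 CPM in males and 4225.3 to 7381.5 CPM in the other 5 females. They were 1904 to 4737.5 CPM in the 3 separate females. Sums of the proximal tubule and collecting duct overlapped between the sexes. The part of these cell types in the differences of *Per1*, *Tef*, and *Noct* given next was not tested.

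*Per1* was between 499 and 1218 normalized counts in the 10 males. The 8 females had 909, 585, 1820, 1819, and 1830 in the LP group and 1662, 1469, and 1546 in the NP group. All but LP females 1 and 2 thus exceeded every male, and those 2 are among the 3 separate libraries. The log2 difference was -0.81 (SE 0.23, edgeR adjusted p = 0.011). It was -0.63 in LP mice alone (edgeR adjusted p = 0.2), -0.97 in NP mice alone (0.038), and -1.01 without the 3 separate libraries (edgeR adjusted p = 0.00117). The summed CPM of 6 glucocorticoid target genes was 354 to 487 in the 3 separate females, 1127 to 1610 in the other 5, and 631 to 1146 in males. It did not follow *Per1* in each library, since NP female 3 had a sum of 487 with 1546 normalized counts of *Per1*. Its genes also differed among themselves: *Sgk1*, a kinase gene, was 4842 to 9881 normalized counts in the other 5 females and 1043 to 1902 in males, whereas *Fkbp5*, a co-chaperone gene, was 4238 to 8554 and 5553 to 10419. The part of these genes in the difference of *Per1* was not tested.

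*Tef* was higher in males, at 5700 to 8807 normalized counts against 5268 to 6576 in females, with a log2 difference of 0.36 (SE 0.08, edgeR adjusted p = 0.00235) that stayed below 1.5-fold. It was 0.38 without the 3 separate libraries (edgeR adjusted p = 0.00737) and 0.40 in LP mice alone (edgeR adjusted p = 0.0214), but in NP mice alone the 0.34 did not pass (edgeR adjusted p = 0.133). *Per3* (log2 difference -0.40, SE 0.15, edgeR adjusted p = 0.0417) and *Cry1* (-0.56, SE 0.19, edgeR adjusted p = 0.0251) also passed by adjusted p. Without the 3 libraries, however, *Per3* fell to -0.16 and an adjusted p of 0.345 and *Cry1* to -0.49 and 0.0686 by edgeR. Leaving out single libraries also ended the call of *Per3* in 9 of 18 cases (LP males 2, 4, and 5, NP males 1 and 5, LP females 1 and 2, and NP females 2 and 3), with an edgeR adjusted p of up to 0.117 without NP female 3, and that of *Cry1* without NP female 2 (edgeR adjusted p = 0.0918). *Per2*, *Ciart*, *Bmal1*, *Nr1d1*, and *Dbp* did not pass. Of the 15 other clock genes tested 3 passed with 1.5-fold, against 18.7% of all 12665 genes. *Noct*, which encodes the rhythmic protein nocturnin, was lower in males (-1.47, SE 0.38, edgeR adjusted p = 0.00566). *Bhlhe41*, the paralog of *Bhlhe40*, was also lower in males (-0.60, edgeR adjusted p = 0.0382). *Fbxl21*, an F-box gene, was higher in males (1.31, edgeR adjusted p = 0.000528). Without the 3 separate libraries, *Bhlhe41* no longer passed (edgeR adjusted p = 0.181). Counts were low for both genes, with 13 to 88 per library for *Bhlhe41* and 10 to 117 for *Fbxl21*. For *Bhlhe41* the stranded sum was 1.57 times the unstranded count.

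Most of the genes described differed more between single mice of a group than the median gene. The SD of log2 CPM, after group means were removed, had a median of 0.289 over 12665 genes. Of the 9 described genes with at least 10 counts everywhere, 7 exceeded it, namely all but *Per2* (0.273) and *Tef* (0.158). Among 15 other clock genes, 9 exceeded it. *Bmal1* (0.57), *Per1* (0.56), *Ciart* (0.56), and *Nr1d1* (0.55) exceeded between 88.4% and 89.7% of all genes. In males alone the same 4 genes exceeded between 92.1% and 96.3%, whereas *Dbp* (0.23) lay near the middle, above 46.7%. In females *Dbp* had the largest SD of the 9 described genes, 0.68, above 90.2% of genes. Without the 3 separate libraries, an alternative added after the data had been seen, it was 0.37, above 77.6% of genes, while that of *Per1* went from 0.61 to 0.0762 and that of *Cry1* from 0.53 to 0.59. Counting error alone amounts to an SD of 0.043 on the log2 scale for *Per1* and 0.045 for *Nr1d1*, and to 0.22 for *Bmal1* with its low counts. Within one sex, the highest library exceeded the lowest by 4.49 times for *Bmal1* and 3.63 times for *Nr1d1* in males. In females it did so by 5.11 times for *Cry1* and 4.78 times for *Nr1d1*. For *Tef* the values were 1.55 times (males) and 1.25 times (females). The lowest female for *Nr1d1* was NP female 3 (383), where the stranded sum was 3.19 times the unstranded count, the highest such ratio of all libraries. On stranded sums, *Nr1d1* in females ran from 1161 (NP female 2) to 2581 (LP female 3).

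Single libraries combined these levels in different ways. LP male 1 had the lowest *Bmal1* (18.6) and *Cry1* (59.6) of the 18 mice together with the highest *Npas2* (46) and *Tef* (8807) and the highest *Nr1d1* (1643) and *Ciart* (449) of the males. LP male 2 had the highest *Bmal1* (83.7) and the lowest *Per2* (554) and *Per3* (406) of all mice. NP males 1 and 5 and LP male 3 were the males with the lowest *Per1* (499, 521, and 526 normalized counts), and NP males 1 and 5 also had the lowest *Ciart* of the males (149 and 130). Among females, LP females 3, 4, and 5 were alike in *Per1* and *Ciart* (398 to 454). NP female 3 had the lowest unstranded *Nr1d1* (383) and *Ciart* (130) of the 18. Neither held with the sum of the stranded columns. Its *Nr1d1* was then 1221, above NP female 2 (1161) and LP male 3 (800). Its *Ciart* was then 142, above NP male 5 (130).

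The 3 separate females also differed from the other 5 in clock genes. Their *Per3* (774 to 1002 normalized counts) lay above the other females (515 to 753) and above all males (406 to 723), and their *Npas2* (5.88 to 11.7) below the other females (14.3 to 32.8) and all males (15.2 to 46). *Dbp* was 2362 in LP female 1 and 1849 in LP female 2, above the highest of all other mice (1247), but 1022 in NP female 3. Of the other clock genes, *Bmal2* was above and *Rora*, *Csnk1e*, *Usp2*, *Wee1*, and *Noct* were below the remaining 5 females without overlap, as was *Rorb* at its very low counts. *Usp2*, a clock-controlled deubiquitinase gene, was 2096 to 3077 against 3429 to 6296, and *Noct* 251 to 657 against 1064 to 2982. The summed CPM of 8 interferon-stimulated genes was 122 to 194 in the 3 libraries and 822 to 3220 in the other 5 females. Because these libraries were set apart on all genes, clock genes included, the contrast is a description and was not tested. The share of all genes without overlap between these libraries and the other females was not determined. Whether the contrast is particular to clock genes therefore cannot be told from these values.

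**Figure D4:**
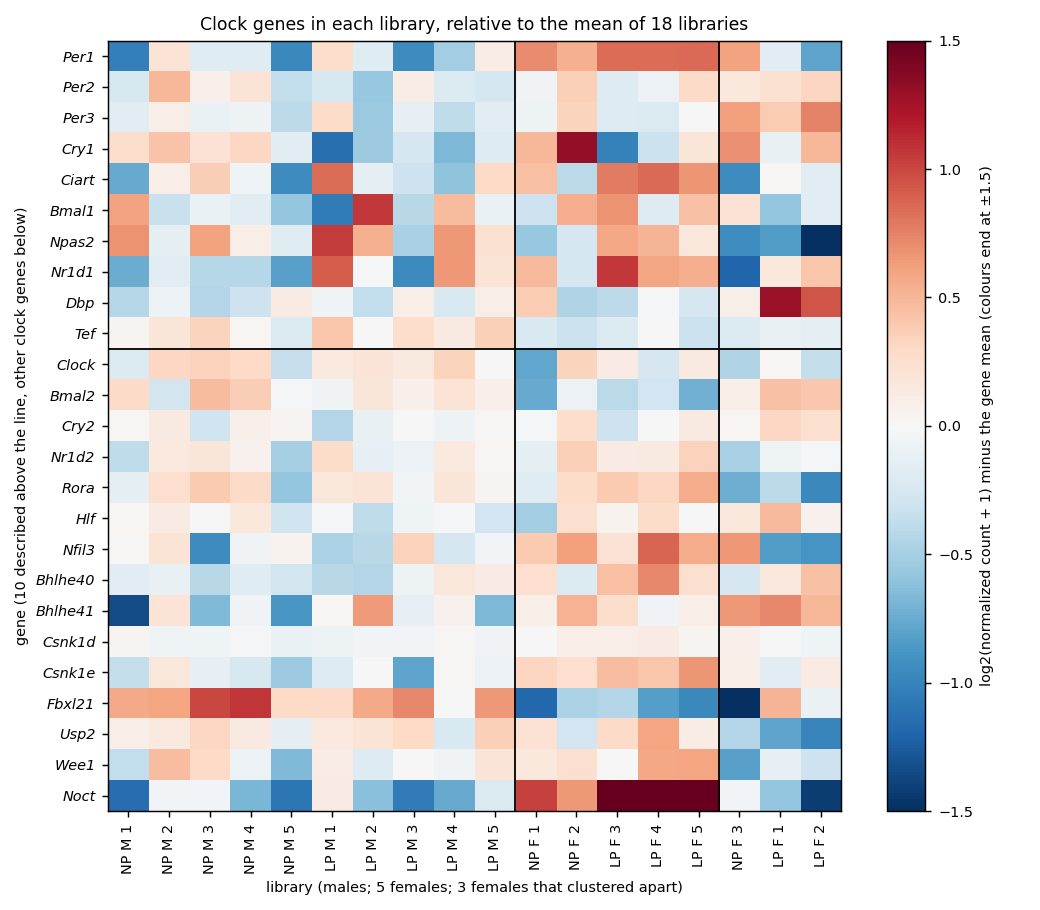
Log2(normalized count + 1) of each clock gene minus its mean over 18 libraries, with blue for lower and red for higher values. The 10 genes are above the horizontal line, and vertical lines separate 10 males, 5 females, and the 3 females that clustered apart. *Npas2* is low and *Per3* high in these 3, and *Dbp* reaches 2362 normalized counts in LP female 1.

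Finally, the relation of *Bmal1*, whose transcript is known to run opposite to those of PER and DBP over the day, to each of the other 9 genes was examined between libraries within each sex, which made 18 relations. The one with the smallest p was with *Dbp* in females, with Pearson's r = -0.864 (permutation p = 0.00466, 0.0839 after Benjamini-Hochberg adjustment over 18) and Spearman's rho = -0.857 (permutation p = 0.0107, adjusted 0.193), n = 8. Leaving out LP females 1 and 3, which were farthest from the median of *Bmal1*, gave r = -0.737. In males the same relation had r = -0.637 (permutation p = 0.0501, adjusted 0.3) and rho = -0.612 (permutation p = 0.0692, adjusted 0.519), n = 10, and r = -0.66 without LP males 1 and 2. *Dbp* was thus lower where *Bmal1* was higher in both sexes, but neither relation passed after adjustment, and the 3 separate females are among the 8. The other 5 females are too few for a correlation.

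The strongest relation in males by Pearson's r was with *Per3*, with r = -0.725 (permutation p = 0.0163, adjusted 0.147) and rho = -0.576 (permutation p = 0.0865, adjusted 0.519), n = 10. It rested on LP males 1 and 2, without which r was -0.23. *Per1* and *Per2* had r = -0.224 (permutation p = 0.527, adjusted 0.862) and -0.381 (permutation p = 0.271, adjusted 0.61) in males, with rho = -0.309 (permutation p = 0.383, adjusted 0.766) and -0.333 (permutation p = 0.344, adjusted 0.766). In females *Per1* had a positive r of 0.493 (permutation p = 0.229, adjusted 0.61) with rho = 0.405 (permutation p = 0.327, adjusted 0.766), and *Per2* an r of -0.00664 (permutation p = 0.988, adjusted 0.99) with rho = 0.0714 (permutation p = 0.882, adjusted 0.977). Without the 2 farthest libraries r was -0.149 and -0.316 in males and 0.26 and 0.714 in females. In females *Per3* had r = -0.184 with *Bmal1* (permutation p = 0.646, adjusted 0.968) and rho = -0.119 (permutation p = 0.793, adjusted 0.977), n = 8. For *Nr1d1*, the direct repressor of *Bmal1*, r was -0.0621 in males (permutation p = 0.871, adjusted 0.99) with rho = 0.164 (permutation p = 0.658, adjusted 0.974), n = 10, and close to 0 in females. *Tef* in females had r = -0.65 (permutation p = 0.0808, adjusted 0.364) and -0.756 on CPM (permutation p = 0.0398, adjusted 0.239). For *Npas2* in males r was 0.23 (permutation p = 0.524, adjusted 0.862), and 0.851 without LP males 1 and 2. On CPM the 2 farthest libraries were LP males 2 and 4, and without them r was 0.0243. No relation passed after adjustment with either scaling. *Bmal1* counts were low, between 15 and 77, which limits all 18 relations.

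**Figure D5:**
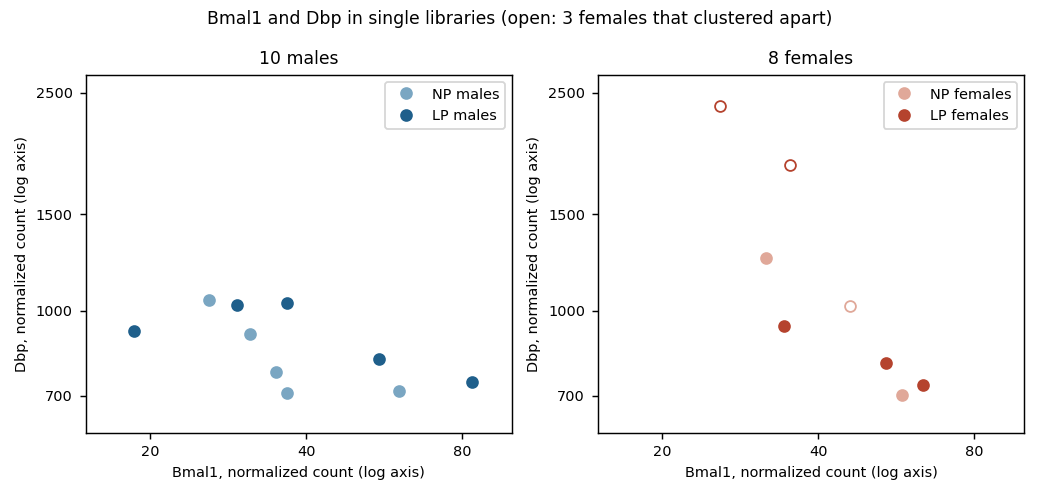
Normalized counts of *Dbp* against those of *Bmal1* in 10 males (left) and 8 females (right), on log axes, each point being 1 mouse and open points LP females 1 and 2 and NP female 3. *Dbp* was lower where *Bmal1* was higher, with r = -0.637 in males and -0.864 in females, but neither relation passed after adjustment.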

How the data were processed

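Kidney RNA of 18 mice was sequenced as non-directional, poly(A)-selected libraries. The authors trimmed adapters, discarded low-quality reads, used STAR to align reads to GRCm39 with the GENCODE vM36 genes, and deposited raw counts per gene; the unstranded column was used. Identifiers were named from GENCODE vM39, which holds 78168 of the 78239 listed. Groups were taken from the sample titles.

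Diets were compared separately in males and in females, and males with females over 4 groups, by edgeR 4.0.16 (R 4.3.3, quasi-likelihood test, TMM, a minimum of 10 counts per gene in all libraries of a comparison, Benjamini-Hochberg adjustment over all genes). A gene was called at an adjusted p under 0.05 and at least 1.5-fold. DESeq2 1.42.0, limma-voom 3.58.1, other filters and scalings, stranded sums, a replicate block, and leaving out libraries were alternatives. The study used DESeq2. Scripts were tested on simulated data. Single genes were tested by exact permutation on log2(normalized count + 1), and correlations with 100000 resamples in males and exact pairings in females (scipy 1.17.1).

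Genes named were the 10 genes, 16 other clock genes (2 more of that list are not reported here), for *Bmal1* and *Dbp* the 5 genes outside these with the highest Pearson's r and the 1 with the lowest, and marker lists given as sums; *Thra*, *Sphk2*, and other overlapping genes were added for the counts they affect. Members and lists were chosen with earlier results of these data known. Replicate numbers were checked for pairing. After removal of group means, same-numbered LP and NP mice correlated between -0.273 and 0.3 in males and between -0.577 and -0.372 in females. In females, each shared number set 1 of the 3 separate libraries against a library outside them, so these values cannot decide on pairing. The numbers were not used as pairs in the main tests.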

Additional observations from a re-analysis of the deposited data

Results flagged for a closer look

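In 78 tests of single genes within groups of 5 mice, 1 value was set apart from the others of its group, where chance gives about 1 in 20. *Cry2*, the paralog of *Cry1*, had 367.7 normalized counts in NP male 3, against 459 to 497 in the other 4 NP males.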

How the results depend on the processing

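In males, the 5 genes called for diet became 9 with no filter on low counts, 15 with DESeq2's Wald test, 1 with all 4 groups in 1 model, and 2 to 6 without single libraries. In females, where none was called, 3 were called with no filter, 9 with DESeq2, 2 with all 4 groups in 1 model, 1 without LP females 1 and 2 and NP female 3, and 0 to 2 without single libraries. For the interaction, 2 genes became 4 with DESeq2, 0 with limma-voom, 0 with stranded sums, 0 without the 3 females, and 0 to 4 without single libraries. None of the 10 clock genes was called in these 3 comparisons under any of these settings. Between males and females, 4 clock genes and 4900 of all genes passed by adjusted p alone, where 1 clock gene passed in LP mice alone and 2 to 4 without single libraries. At 1.5-fold, where 1 clock gene was called, there were 0 in LP mice alone and 1 to 2 without single libraries, where *Cry1* joined *Per1* without LP male 3 or 5, NP male 2, LP female 3 or 4, or NP female 1 or 3. The mean of both sexes, chosen after seeing the data, called 3 genes without the 3 females and 9 with DESeq2, *Cry1* among them, and 1 to 9 without single libraries.

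The replicate numbers were not used as pairs in the main tests. With the replicate number as a block, 2 genes were called in males and 0 for the interaction, *Per3* turned to 0.0265 in females, and the interaction of *Nr1d1* to 0.15 on the log2 scale. No call of a clock gene at 1.5-fold changed with the block. Between males and females, *Per3* no longer passed by adjusted p with it (-0.34, edgeR adjusted p = 0.126).

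Values near 0 changed sign in places. On the log2 scale, *Per3* became 0.0142 in males with stranded sums and *Per2* 0.0126 in females with no filter. The interaction of *Nr1d1* became 0.18 with limma-voom. Without the 3 females, the diet effects in females became 0.21 for *Per1*, 0.18 for *Bmal1*, and -0.25 for *Dbp*, the interactions 0.0369 for *Per1* and -0.39 for *Dbp*, and the means of both sexes 0.18 for *Per1* and -0.0595 for *Dbp*. Between males and females, *Ciart* became 0.0096 in NP mice alone and *Bmal1* 0.0774 in LP mice alone. With CPM, r with *Bmal1* became 0.0235 for *Nr1d1* in males, -0.0287 for *Ciart* in females, and 0.0237 for *Nr1d1* in females.

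Without single libraries, diet effects in males ran from -0.17 to 0.0467 for *Per3* and from -0.0701 to 0.48 for *Bmal1*. In females they ran from -0.27 to 0.0441 for *Per1*, -0.11 to 0.0992 for *Per2*, -0.29 to 0.052 for *Per3*, and -0.27 to 0.17 for *Bmal1*. Interactions ran from -0.27 to 0.0775 for *Per3*, -0.40 to 0.065 for *Cry1*, -0.37 to 0.44 for *Nr1d1*, and -0.0117 to 0.50 for *Dbp*. Differences between the sexes ran from -0.33 to 0.0517 for *Ciart* and -0.27 to 0.0106 for *Bmal1*, and means of both sexes from -0.0736 to 0.0922 for *Per1*, -0.18 to 0.0018 for *Per3*, and -0.085 to 0.19 for *Bmal1*. The cause of these changes was not tested. *Cry1* kept its direction under each setting, with log2 fold changes from -0.83 to -0.62 in males and from -1.27 to -0.64 in females. Low counts limit *Bmal1* and *Npas2*.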

Other observations

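Over 18 libraries with group means removed, the genes outside the clock lists with log2 CPM most like that of *Bmal1* were *Plppr4* (r = 0.79), *Rab6b* (0.76), *Abi2* (0.74), *Zdhhc15* (0.72), and *Map1a* (0.71), and *Zfp830* ran most opposite (-0.87). For *Dbp* they were *Rpl3-ps1* (0.89), *Fxr2* (0.88), *Abhd16a* (0.87), *Hsdl1* (0.86), and *N6amt1* (0.86), and *Gbp10* ran most opposite (-0.92). These values are descriptions chosen from 12665 genes, over mice that share the contrast between the 3 separate females and the rest. In the 10 males alone the 5 genes nearest to *Bmal1* had r between 0.69 and 0.85, and those nearest to *Dbp* between 0.56 and 0.84. *Rpl3-ps1* is a processed pseudogene whose reads can be shared with its parent gene.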
